A study of Ambystoma mexicanum with 12 samples.

Results

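Matrix proteases and the proteins that hold them in check were followed in spinal cord RNA of the axolotl (Ambystoma mexicanum), a salamander that regrows a severed spinal cord. The set was every gene whose symbol is MMP, ADAM or ADAMTS with a number, TIMP with a digit, PLAU, PLAUR, PLAT or SERPINE2, and it held 61 of the 15091 genes in the deposited table. It comprised 19 matrix metalloproteinases (MMP), 15 ADAM and 19 ADAMTS genes, 4 tissue inhibitors of metalloproteinases (TIMP), and 4 genes of plasminogen activation. The rule reads gene symbols alone. The 4 groups were injured cords treated with an inhibitor of the microRNA miR-200a and collected 4 days post injury (4 dpi inhibitor), injured cords given a control inhibitor and collected at the same time (4 dpi control), intact cords given the miR-200a inhibitor (uninjured inhibitor), and intact cords given the control inhibitor (uninjured control). The labels call the reagent a miR-200 inhibitor and describe its injection into the central canal of animals 2 to 3 cm long, just before a piece of the cord was cut out. The study's text speaks of electroporated tissue and states a greater body length for the animals of its in vivo experiments. Neither strain nor age is given, and the time from injection to collection of the intact cords is not stated. Each group had 3 libraries, and each library pooled tissue of 10 animals, so a library is an average over animals and over all the cell types of the dissected piece.

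Matrix metalloproteinases are zinc enzymes that cut collagens, gelatin, laminins and proteoglycans. Most are secreted as inactive precursors, while the membrane-type members sit on the cell surface, where MMP14 activates the precursor of MMP2 with the help of TIMP2. ADAM proteins are membrane-bound sheddases that release ectodomains such as those of Notch, growth factors and cytokines, although several members lack the catalytic zinc site and serve in adhesion. ADAMTS proteins are secreted and cut proteoglycans, procollagens and other matrix proteins. The TIMPs bind and block the active site of metalloproteinases. PLAU (urokinase) and PLAT (tissue plasminogen activator) turn plasminogen into plasmin, PLAUR anchors urokinase at the cell surface, and SERPINE2 (glia-derived nexin) inhibits these serine proteases. In mammals these systems open and remodel the matrix after spinal cord injury, and in salamanders metalloproteinases are known to act early in limb regeneration. These roles were established mainly in mammals, and the symbols are those of the human genes to which the authors matched the axolotl transcripts.

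Values were TPM (transcripts of a gene among 1000000 transcripts, scaled to transcript length). They keep no count of reads, so the depth of the libraries cannot be given. The 14764 genes with at least 0.5 TPM in 3 libraries entered limma as log2(TPM + 0.5). A gene was called where the adjusted p was below 0.05 and the log2 fold change was above 1 in either direction. On this scale the change of a gene at low TPM is understated. Of the 61 genes 60 were tested, and MMP27 was left out because it was listed at 8.12 TPM in uninjured control library S2 and at 0 in the other libraries. Across genes, pairs of uninjured control libraries had r = 0.82 to 0.908, and pairs within the 3 remaining groups had r = 0.927 to 0.978. GFAP and SOX2, which define the ependymoglial cells that line the central canal, were detected in every library. Skeletal muscle markers (10 genes, all detected) held 3.87% of transcripts in uninjured control library S2 (a title with no number of its own), against 0.337% to 2.18% in the other 11 libraries. Neuron markers (12 genes) held 1.47% in uninjured control library 1 and 0.139% to 0.605% elsewhere. Median-of-ratios factors, which put the libraries on the scale of a typical gene, were 0.786 to 0.946 in 4 dpi inhibitor, 1.1 to 1.69 in 4 dpi control, 0.659 to 0.786 in uninjured inhibitor and 1.12 to 1.8 in uninjured control libraries. This rescaling moved the median log2 fold change of all genes to −0.18, against −1.0 on TPM, for uninjured inhibitor over uninjured control, and to −0.06, against −0.62 on TPM, for 4 dpi inhibitor over 4 dpi control. Fold changes against controls are therefore read beside those medians.

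The genes together held 0.0529% to 0.219% of all transcripts. By their mean over the 12 libraries, 9 genes lay above 50 TPM, 25 between 5 and 50 TPM and 27 below 5 TPM, and 12 were listed at 0 in some library. In descending order the 10 most abundant were MMP2 (121.5 TPM on average), MMP14 (113.2), ADAM10 (106.2), SERPINE2 (93.1), TIMP1 (82.1), TIMP4 (71.9), MMP1 (67), ADAM17 (66.2), TIMP2 (51.3) and MMP3 (45.1). The catalogue thus ran from gelatinase A and its membrane activator through the main Notch and TNF sheddases to the inhibitors. The mean of MMP3 leans on uninjured control library S2, at 266.9 TPM against at most 72.1 TPM in any other library. In RefSeq's annotation of the axolotl assembly UKY_AmexF1_1 49 of the 61 symbols are listed. The other 12, which include MMP1, MMP3, MMP10 and MMP13, are not, so their human names rest on the authors' matching, and reads of close relatives among these MMPs may have been shared between them.

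Injury in control animals was the first comparison, and it addressed how the protease genes respond during normal regeneration. The stromelysin MMP10 and the gelatinase MMP2 rose in 4 dpi control cords relative to uninjured control cords, none fell, and 58 did not pass the test. Across all genes tested 0.874% were called higher and 0.061% lower, against 3.33% and 0% of the 60. At an unadjusted p under 0.05 there were 14 of the 60, where 10.5% of all genes were. The median log2 fold change was 0.11 over the 60 and −0.09 over all genes. By family it was 1.05 for the MMPs, 0.01 for the ADAMs, −0.37 for the ADAMTSs and −0.07 for the TIMPs. In 8 of the 60 genes (13.3%) all 3 injured libraries lay above all 3 uninjured ones, against 7.63% of all genes, and in 1 (ADAMTS8, 1.67%) they lay below, against 1.98% of all genes.

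Values in single libraries are given here and in later paragraphs for libraries 5, 6 and 7 of 4 dpi inhibitor, 1, 5 and 6 of 4 dpi control, 5, 6 and 7 of uninjured inhibitor, and 1, S2 and 5 of uninjured control, in that order. MMP2, gelatinase A, which cuts denatured and basement membrane collagen, had 83.5, 91.1 and 88.2 TPM in 4 dpi inhibitor, 290.5, 299.2 and 158.8 TPM in 4 dpi control, 74.3, 70.1 and 56.8 TPM in uninjured inhibitor, and 83.6, 98.8 and 63.1 TPM in uninjured control libraries. Its 4 dpi control libraries were the only ones above 100 TPM, and they averaged 249.5 ± 78.6 TPM against 81.8 ± 17.9 TPM in uninjured control (SD, n = 3 libraries each). The log2 fold change was 1.57 (SE 0.26, adjusted p = 0.00903, limma), and it was 1.61 after median-of-ratios scaling (adjusted p = 0.0257). MMP10, stromelysin 2, which degrades proteoglycans and activates other MMP precursors, had 10.9, 38 and 24.6 TPM in 4 dpi inhibitor, 68.8, 79.2 and 57.8 TPM in 4 dpi control, 11.4, 1.11 and 2.84 TPM in uninjured inhibitor, and 0.986, 14.4 and 0.82 TPM in uninjured control libraries. All 3 of its 4 dpi control libraries exceeded every other library, and the log2 fold change was 4.48 (SE 0.87, adjusted p = 0.0259). The MMP10 call was lost after median-of-ratios scaling (4.36, adjusted p = 0.0516), without uninjured control library 1 (3.95, 0.0722) or 5 (3.87, 0.12), and without 4 dpi control library 1 (4.47, 0.053), 5 (4.37, 0.114) or 6 (4.59, 0.0944). It was also lost without a trend (4.48, 0.0511) and without both control libraries numbered 1 (3.94, 0.1). A fit of the 6 libraries compared alone lost it too (4.48, 0.226). The MMP2 call was lost only without 4 dpi control library 5 (1.41, 0.0563) or when the 6 libraries compared were fitted alone (1.57, 0.255).

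Uninjured control library S2 stood apart in some of these genes. It exceeded the next uninjured control library by more than 3 times in 8 of the tested members at 5 TPM or more in S2, namely MMP1, MMP3, MMP9, MMP10, MMP13, PLAU, PLAUR and TIMP1. This screen was run for S2 alone. Library 1 was the highest uninjured control in 36 of the 61 genes, S2 in 21 and library 5 in 4. The 36 include ADAM32 and MMP20, which were tied at 0 in every uninjured control library. In ADAM11, for one, library 1 had 71.4 TPM against 13.2 TPM in S2 and 14.6 TPM in library 5. MMP3, stromelysin 1, had 15.3, 25.3 and 43.7 TPM in 4 dpi inhibitor, 49.3, 72.1 and 33.9 TPM in 4 dpi control, 11.7, 7.01 and 7.75 TPM in uninjured inhibitor, and 5.15, 266.9 and 3.82 TPM in uninjured control libraries. S2 was the highest of all 12 libraries and 51.8 times the next uninjured control library. MMP1, interstitial collagenase, had 45, 110.9 and 73.8 TPM in 4 dpi inhibitor, 61.1, 277.2 and 90.4 TPM in 4 dpi control, 15.9, 10.8 and 12.3 TPM in uninjured inhibitor, and 1.85, 101.0 and 3.53 TPM in uninjured control libraries. Here too S2 reached the injured range, at 28.7 times the next uninjured control. Epidermis markers (10 genes, of which S2 was the highest uninjured control in 9) held 0.316% of transcripts in S2 against 0.0322% to 0.192% in the other libraries. In 11 of 12 neuron markers and 7 of 9 ependymoglia markers S2 was the lowest uninjured control. The summed level of 19 leukocyte markers in S2 was 0.0418%, within the 0.032% to 0.0517% of its group, and S2 was the highest uninjured control in 6 of the 19 and the lowest in 10. Whether these transcripts have a part in the protease values was not tested.

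Without library S2, 8 genes were higher at 4 dpi in controls and none was lower, against 1.8% higher and 0.32% lower over all genes. The 8 were the collagenases MMP1 (log2 fold change 5.24, SE 0.55, adjusted p = 0.000383) and MMP13 (2.61, SE 0.26, 0.00031), the stromelysins MMP3 (3.33, SE 0.43, 0.00186) and MMP10 (5.61, SE 0.69, 0.00117), the gelatinases MMP2 (1.72, SE 0.28, 0.00796) and MMP9 (2.94, SE 0.50, 0.011), MMP19 (1.91, SE 0.36, 0.02) and PLAUR (1.86, SE 0.38, 0.0285). S2 had been singled out for its high values in MMP1, MMP3, MMP9, MMP10, MMP13 and PLAUR. Larger rises in these genes thus follow from leaving it out, and the count without S2 is no separate support for a rise. The count was 1 without uninjured control library 1 or 5 and 0 without 4 dpi control library 5. These counts stand without a share over all genes, and they describe the fits and not the set. With S2 in the fit, MMP1 had a log2 fold change of 3.55 (SE 1.06, adjusted p = 0.191) and MMP3 of 1.42 (SE 1.14, 0.68). MMP9, MMP13, MMP19 and MMP7 fall outside the rule for named genes and were chosen after their values were seen. MMP9, gelatinase B of granulocytes and macrophages, had 14.3, 13.3 and 11.8 TPM in 4 dpi inhibitor, 28, 90.9 and 22.1 TPM in 4 dpi control, 5.33, 4.31 and 6.62 TPM in uninjured inhibitor, and 6.25, 37.4 and 3.29 TPM in uninjured control libraries. MMP13, collagenase 3, had 22.2, 20.7 and 22.3 TPM in 4 dpi inhibitor, 40.4, 30.8 and 25.1 TPM in 4 dpi control, 5.6, 6.78 and 5.81 TPM in uninjured inhibitor, and 4.28, 24.6 and 5.27 TPM in uninjured control libraries. In MMP13 all injured control libraries exceeded even S2, and in MMP9 they did not. MMP7, matrilysin, was near 0 in uninjured controls and had 1.32, 5.53 and 3.03 TPM in 4 dpi inhibitor, 39.5, 4.62 and 2.29 TPM in 4 dpi control, 0.201, 0.428 and 2.19 TPM in uninjured inhibitor, and 0, 0.617 and 0 TPM in uninjured control libraries, and its log2 fold change of 3.66 (SE 0.87, adjusted p = 0.0811) did not pass. Leukocyte markers moved with this comparison, since 9 of the 19 were called higher, none was lower, and their sum was 0.161% to 0.195% in 4 dpi control against 0.032% to 0.0517% in uninjured control. The largest part of that sum in 4 dpi control was LYZ, at 807.3, 954.2 and 816.9 TPM against 77.9, 89.5 and 87.5 TPM in uninjured control. The part of these markers in the rise of the MMPs was not tested. In such bulk tissue, more cells of a type and more RNA per cell cannot be told apart.

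**Figure D1:**
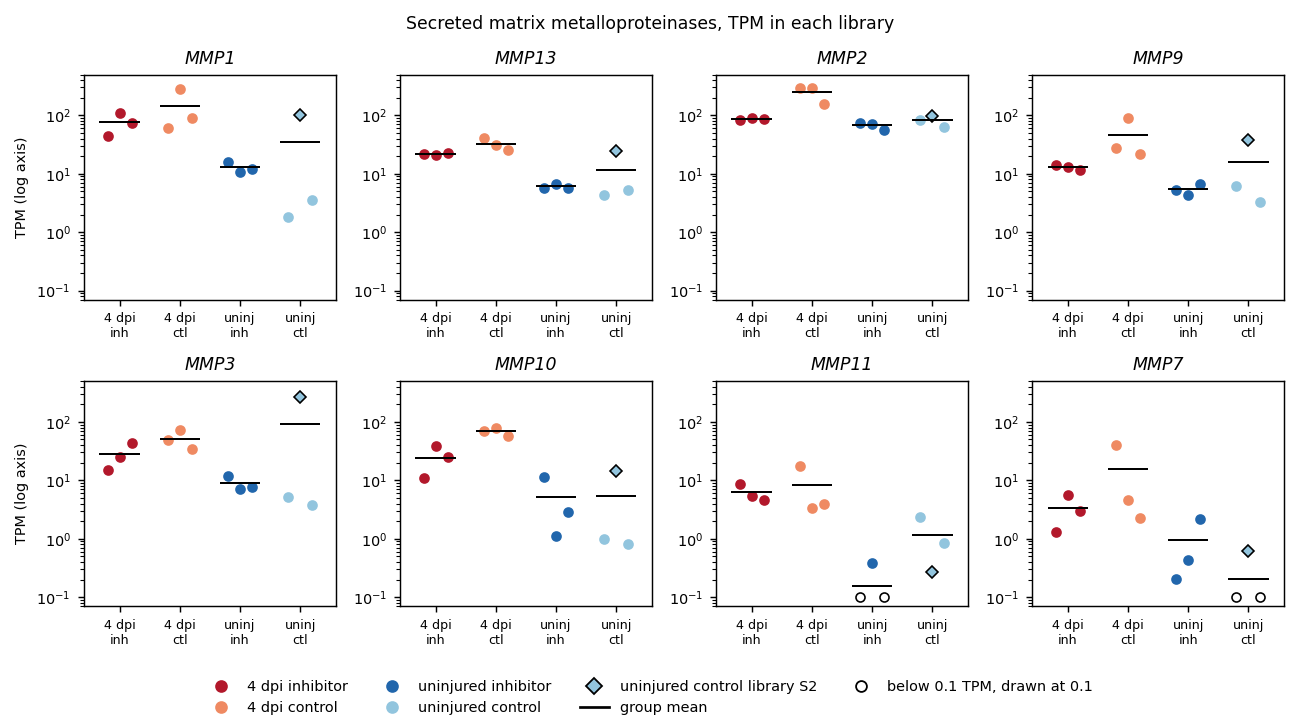
TPM on a log axis of 8 secreted metalloproteinases in each of the 12 libraries, with libraries as points, uninjured control library S2 as a diamond, arithmetic group means as bars, and values under 0.1 TPM drawn open at 0.1. MMP2 is above 100 TPM in 4 dpi control alone, and library S2 is far above the other uninjured controls in MMP1, MMP3, MMP9, MMP10 and MMP13.

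In the fit of all 12 libraries, none of the 15 ADAM, 19 ADAMTS or 4 TIMP genes was called in either direction, and none of PLAU, PLAT and PLAUR was. Log2 fold changes ran between −1.47 and 1.80 in the ADAMs, between −1.99 and 1.0 in the ADAMTSs, and between −0.96 and 0.66 in the TIMPs. ADAM10, the sheddase that starts Notch cleavage, had 69.8, 108.5 and 76.3 TPM in 4 dpi inhibitor, 170.2, 145.1 and 140.5 TPM in 4 dpi control, 63.6, 60.5 and 59.8 TPM in uninjured inhibitor, and 159.9, 94.1 and 126.5 TPM in uninjured control libraries, with a log2 fold change of 0.29 at 4 dpi in controls (SE 0.23, adjusted p = 0.681). ADAM17, which releases TNF and ligands of the EGF receptor, had 47.9, 64.4 and 45.3 TPM in 4 dpi inhibitor, 109.3, 63.6 and 81.1 TPM in 4 dpi control, 47.5, 46.6 and 36.2 TPM in uninjured inhibitor, and 110.5, 53.4 and 88.7 TPM in uninjured control libraries, with 0.04 (SE 0.29, 0.971). The ranges of these abundant sheddases overlapped between both control groups. ADAMTS8, a weakly active proteoglycanase, was the gene whose injured libraries all lay below the uninjured ones, at a log2 fold change of −1.99 (SE 0.52, adjusted p = 0.121).

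The inhibitor in uninjured cords was the second comparison, which asked what loss of miR-200a activity does without injury. On TPM 30 of the 60 genes (50%) fell in uninjured inhibitor cords relative to uninjured control cords, none rose and 30 did not pass, where 42% of all genes were called lower and 3.32% higher. The median log2 fold change was −1.17 over the 60 and −1.0 over all genes. The share that fell was thus close to that of all genes, most of which shifted down on this scale. The genes called lower were 9 of 15 ADAMs, 11 of 19 ADAMTSs, 5 of 18 MMPs, TIMP2 and TIMP3 of the 4 TIMPs, and PLAU, PLAT and PLAUR, while SERPINE2 did not pass. Log2 fold changes on TPM ran between −3.16 and 0.91 in the ADAMs, between −2.71 and 0.94 in the ADAMTSs, and between −2.94 and 0.88 in the MMPs. On values rescaled by median of ratios, 13 genes fell and 3 rose, where 13.2% of all genes were lower and 15.1% higher, and the median was −0.52 over the 60 and −0.18 over all genes. All 13 were among the 30, and 17 calls were made on TPM alone. The share of all genes called lower on both scales was not counted. In 33 of the 60 genes (55%) all inhibitor libraries lay below all control libraries, against 48.9% of all genes. The number called on TPM was 16 without uninjured control library 1, 15 without uninjured inhibitor library 5 and 16 without library 7 of that group. Shares over all genes are not given for these fits, so the counts do not describe the set. It was 34 without S2 (33 lower and MMP1 higher, where 48.4% of all genes were lower and 3.27% higher). MMP1 had been named for its high value in S2, and leaving S2 out lowers the control level it is set against. Marker genes were called in this comparison too. Those called lower were of skeletal muscle (10 of 10), epidermis (8 of 10), neurons (7 of 12), ependymoglia (5 of 9), mesenchyme (3 of 11) and endothelium (2 of 8), where 42% of all genes were lower. Of the 19 leukocyte markers 6 were higher and 2 lower, at a summed 0.101% to 0.12% in uninjured inhibitor and 0.032% to 0.0517% in uninjured control. The largest part of the leukocyte sum in uninjured inhibitor was LYZ, at 714.6, 613.6 and 718.4 TPM. LYZ had 77.9, 89.5 and 87.5 TPM in uninjured control, so the sums mainly follow this 1 gene. The part of these markers in the protease values was not tested.

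Of 6 membrane-type MMPs 4 were lower on TPM, with a median of −1.84, and 3 after rescaling, where 42% and 13.2% of all genes were. Of the 12 other MMPs tested, MMP21 was lower on both scales and MMP19 was higher after rescaling, and a difference between these groups of MMPs was not tested. MMP14, the membrane activator of MMP2, had 108.0, 75.1 and 79.6 TPM in 4 dpi inhibitor, 344.2, 139.1 and 143.5 TPM in 4 dpi control, 23.7, 42.7 and 13.6 TPM in uninjured inhibitor, and 201.0, 70.3 and 118.1 TPM in uninjured control libraries. No uninjured inhibitor library reached the lowest uninjured control, and the log2 fold change was −2.28 (SE 0.47, adjusted p = 0.00324, limma) and −1.35 after median-of-ratios scaling (0.0162). MMP25, a lipid-anchored protease of leukocytes in mammals, had 5.85, 3.31 and 5.06 TPM in 4 dpi inhibitor, 16.8, 10.5 and 7.7 TPM in 4 dpi control, 0.493, 2.1 and 0.449 TPM in uninjured inhibitor, and 17.6, 10.2 and 5.19 TPM in uninjured control libraries. It was lower by a log2 fold change of −2.94 (SE 0.50, adjusted p = 0.00193) and of −2.22 on the rescaled values (0.00394). MMP17, the other lipid-anchored member, had 1.21, 1.6 and 1.44 TPM in 4 dpi inhibitor, 8.21, 1.41 and 1.87 TPM in 4 dpi control, 0.938, 1.03 and 0.829 TPM in uninjured inhibitor, and 18.1, 3.17 and 3.82 TPM in uninjured control libraries, with −2.22 (SE 0.64, 0.0133) and −1.46 (0.035). In MMP17 the control libraries were spread over a wide range, with library 1 highest. MMP21, a secreted protease needed for left-right asymmetry in mouse and human, stayed near the detection floor at 0.467, 1.01 and 0.321 TPM in 4 dpi inhibitor, 1.64, 0.899 and 0.805 TPM in 4 dpi control, 0.106, 0.339 and 0 TPM in uninjured inhibitor, and 5.02, 0.652 and 1.17 TPM in uninjured control libraries. Its log2 fold change was −1.80 (SE 0.57, adjusted p = 0.0205), and −1.36 after rescaling (0.0406). MMP2, in contrast, had overlapping libraries and a log2 fold change of −0.27 on TPM (SE 0.26, adjusted p = 0.383) and of 0.67 on the rescaled values (0.105).

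Among the ADAMs, members with and without a catalytic site fell. ADAM9, a broadly expressed sheddase, had 3.42, 3.47 and 3.27 TPM in 4 dpi inhibitor, 16.3, 7.22 and 5.98 TPM in 4 dpi control, 1.2, 1.95 and 0.473 TPM in uninjured inhibitor, and 11.1, 14.2 and 5.94 TPM in uninjured control libraries. The log2 fold change was −2.70 (SE 0.46, adjusted p = 0.00191, limma), and −1.94 after median-of-ratios scaling (0.00473). ADAM28, a sheddase best known from lymphocytes in mammals, had 5.55, 5.68 and 4.93 TPM in 4 dpi inhibitor, 19.9, 5.73 and 5.79 TPM in 4 dpi control, 0.946, 0.841 and 0.287 TPM in uninjured inhibitor, and 7.76, 11.2 and 4.72 TPM in uninjured control libraries, with −2.79 (SE 0.48, 0.00195) and −2.09 (0.00401). For both genes every other group lay above uninjured inhibitor in every library. ADAM11, a brain protein without protease activity that binds the LGI adhesion proteins in mammals, had 4.63, 3.46 and 5.54 TPM in 4 dpi inhibitor, 20.6, 5.28 and 5.21 TPM in 4 dpi control, 1.99, 6.21 and 0.733 TPM in uninjured inhibitor, and 71.4, 13.2 and 14.6 TPM in uninjured control libraries. Its log2 fold change was −3.16 (SE 0.73, adjusted p = 0.00513) and −2.34 on the rescaled values (0.0139), and uninjured control library 1 was the highest. That library also led in the summed markers of neurons and of ependymoglia, and their part in the ADAM11 values was not tested. ADAM29, a testis gene in mammals, had 2.84, 2.6 and 1.64 TPM in 4 dpi inhibitor, 12.1, 3.96 and 5.24 TPM in 4 dpi control, 0.407, 3.05 and 0 TPM in uninjured inhibitor, and 6.99, 6.91 and 5.16 TPM in uninjured control libraries, with −2.54 (SE 0.62, 0.0062) and −1.94 (0.0282). ADAM10 was lower on TPM by −1.01 (SE 0.23, adjusted p = 0.00508) and stood at −0.07 after rescaling (0.818), so its fall was of the size of that of all genes. ADAM17 did not pass the fold threshold on TPM, at −0.90 (SE 0.29, 0.0222), and stood at 0.04 after rescaling (0.885). Both sheddases thus moved by about as much as the median of all genes.

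Among the ADAMTSs, 4 were lower on both scales, where 42% of all genes were lower on TPM and 13.2% after rescaling. ADAMTS8 had 0.758, 0.584 and 0.695 TPM in 4 dpi inhibitor, 1.42, 0.334 and 1.57 TPM in 4 dpi control, 0.276, 1.03 and 0.126 TPM in uninjured inhibitor, and 8.88, 6.15 and 2.83 TPM in uninjured control libraries. It was lower by −2.71 (SE 0.52, adjusted p = 0.00265, limma), and by −2.11 on the rescaled values (0.00588). ADAMTS7, which cuts the cartilage matrix protein COMP in mammals, had 1.31, 1.19 and 0.707 TPM in 4 dpi inhibitor, 8.2, 0.765 and 1.24 TPM in 4 dpi control, 0.0701, 1.05 and 0.128 TPM in uninjured inhibitor, and 9.96, 2.37 and 2.77 TPM in uninjured control libraries, with −2.49 (SE 0.72, 0.0135) and −1.94 (0.0268). ADAMTS14, a procollagen N-proteinase, had 4.13, 2.79 and 1.85 TPM in 4 dpi inhibitor, 6.72, 2.11 and 2.94 TPM in 4 dpi control, 0.402, 2.43 and 0.366 TPM in uninjured inhibitor, and 13.3, 2.27 and 5.79 TPM in uninjured control libraries. Its groups overlapped by 1 library on each side, at −2.24 (SE 0.64, 0.0129) and −1.54 (0.0416). ADAMTS10, which acts on fibrillin microfibrils, had 1.17, 0.692 and 0.728 TPM in 4 dpi inhibitor, 1.99, 0.708 and 0.652 TPM in 4 dpi control, 0.172, 0.293 and 0 TPM in uninjured inhibitor, and 2.28, 1.06 and 1.3 TPM in uninjured control libraries, with −1.62 (SE 0.46, 0.012) and −1.19 (0.0302). All 4 were low genes with group means under 10 TPM, in which single libraries weigh heavily. The 3 genes that were higher on the rescaled values were ADAMTS19 (log2 fold change 1.79, adjusted p = 0.0103), MMP19 (1.16, 0.0357) and SERPINE2 (1.32, 0.00401), of which the first 2 were named after their values were seen. On TPM they stood at 0.94, 0.26 and 0.38 and were not called.

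**Figure D2:**
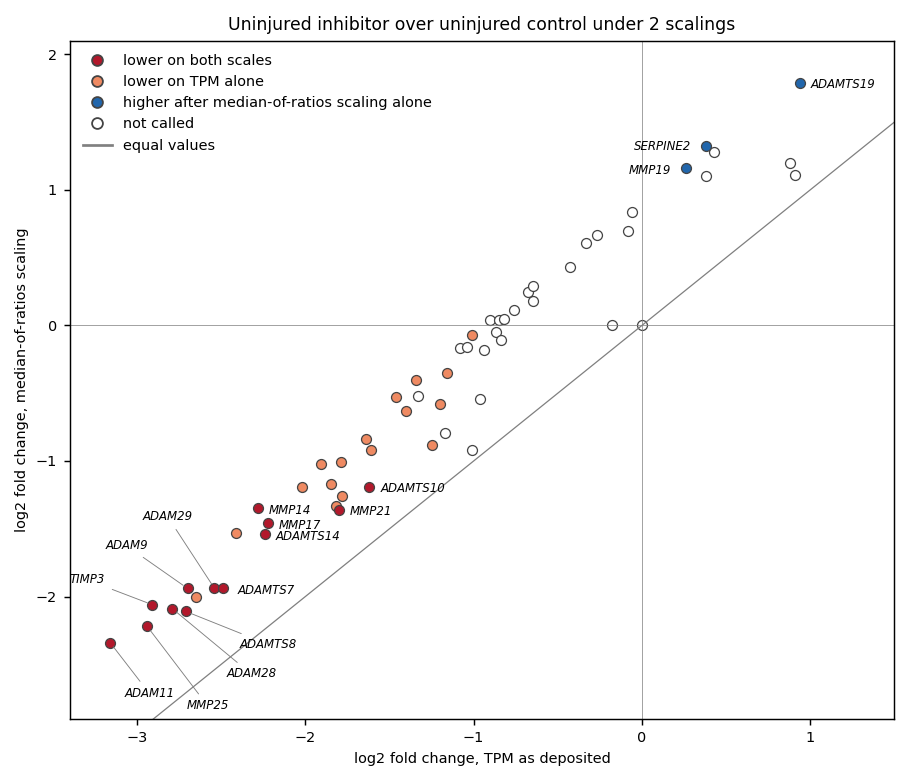
Log2 fold change of each of the 60 genes tested in uninjured inhibitor over uninjured control, on TPM along the horizontal axis and after median-of-ratios scaling along the vertical axis, colored by call. Nearly all points lie above the line of equal values, 13 genes are lower on both scales, and 3 are higher only after the rescaling.

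The inhibitors of metalloproteinases were spread widely here. TIMP3, which binds to the matrix and also blocks ADAM17, had 4.73, 5.44 and 5.29 TPM in 4 dpi inhibitor, 25.1, 9.46 and 8.3 TPM in 4 dpi control, 2.26, 6.69 and 1.46 TPM in uninjured inhibitor, and 30.7, 16.8 and 30.3 TPM in uninjured control libraries. It was lower by −2.91 in uninjured inhibitor over uninjured control (SE 0.50, adjusted p = 0.00193, limma), and by −2.06 after rescaling (0.00401), with no overlap between the groups. TIMP2, the partner of MMP14 in activating MMP2, had 27, 30.3 and 25.7 TPM in 4 dpi inhibitor, 102.2, 38.1 and 57.9 TPM in 4 dpi control, 25.1, 31.9 and 29.3 TPM in uninjured inhibitor, and 143.7, 47.2 and 57.6 TPM in uninjured control libraries. Its log2 fold change of −1.34 on TPM (SE 0.40, 0.0159) became −0.40 on the rescaled values (0.261). TIMP1, which is induced in wounds and inflammation, had 36.9, 47.5 and 69.2 TPM in 4 dpi inhibitor, 106.6, 184.2 and 100.2 TPM in 4 dpi control, 48.7, 47.5 and 54.5 TPM in uninjured inhibitor, and 43.5, 186.1 and 60.4 TPM in uninjured control libraries. The uninjured inhibitor libraries were alike and overlapped the controls, of which S2 was by far the highest, at −0.65 (SE 0.45, adjusted p = 0.224) and 0.29 (0.714). TIMP4, best known from the heart in mammals, had 56.5, 65.2 and 63.8 TPM in 4 dpi inhibitor, 70.6, 117.4 and 67.9 TPM in 4 dpi control, 58.3, 75.9 and 50 TPM in uninjured inhibitor, and 89.1, 50.8 and 97.1 TPM in uninjured control libraries, with −0.33 (SE 0.29, 0.343) and 0.61 (0.156). Under every one of the 23 alternatives 7 calls of this comparison were kept, those of ADAM9, ADAM11, ADAM28, ADAMTS8, MMP14, MMP25 and TIMP3. How many of all genes kept their calls in this way was not counted, so the 7 do not set these genes apart from others.

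In the plasminogen system the activators and the receptor were lower on TPM, and SERPINE2 was not called. PLAU had 6.06, 7.8 and 13.2 TPM in 4 dpi inhibitor, 15.7, 7.89 and 8.72 TPM in 4 dpi control, 1.7, 2.56 and 1.41 TPM in uninjured inhibitor, and 4.68, 21.2 and 2.96 TPM in uninjured control libraries. PLAT had 6.43, 3.01 and 3.49 TPM in 4 dpi inhibitor, 23.7, 4.28 and 7.3 TPM in 4 dpi control, 0.308, 2.95 and 0.14 TPM in uninjured inhibitor, and 28.8, 2.84 and 4.01 TPM in uninjured control libraries. PLAUR had 4.92, 7.59 and 5.61 TPM in 4 dpi inhibitor, 15.7, 10.1 and 8.8 TPM in 4 dpi control, 1.62, 1.41 and 1.38 TPM in uninjured inhibitor, and 3.96, 13 and 1.84 TPM in uninjured control libraries. In uninjured inhibitor over uninjured control PLAU stood at −1.64 (SE 0.58, adjusted p = 0.0302, limma), PLAT at −2.65 (SE 0.86, 0.0212) and PLAUR at −1.40 (SE 0.51, 0.0356). After rescaling none of the 3 passed, at −0.84 (0.279), −2.0 (0.0563) and −0.63 (0.346). Uninjured control library 1 held most of the PLAT transcripts of its group, and S2 most of the PLAU and PLAUR transcripts. SERPINE2, an inhibitor of thrombin and plasminogen activators made by glia, had 107.1, 113.0 and 101.5 TPM in 4 dpi inhibitor, 99.5, 88.7 and 80.7 TPM in 4 dpi control, 103.4, 108.2 and 77.3 TPM in uninjured inhibitor, and 105.5, 40.6 and 91.2 TPM in uninjured control libraries. It was among the steadiest genes of the set, with only S2 below 77.3 TPM.

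**Figure D3:**
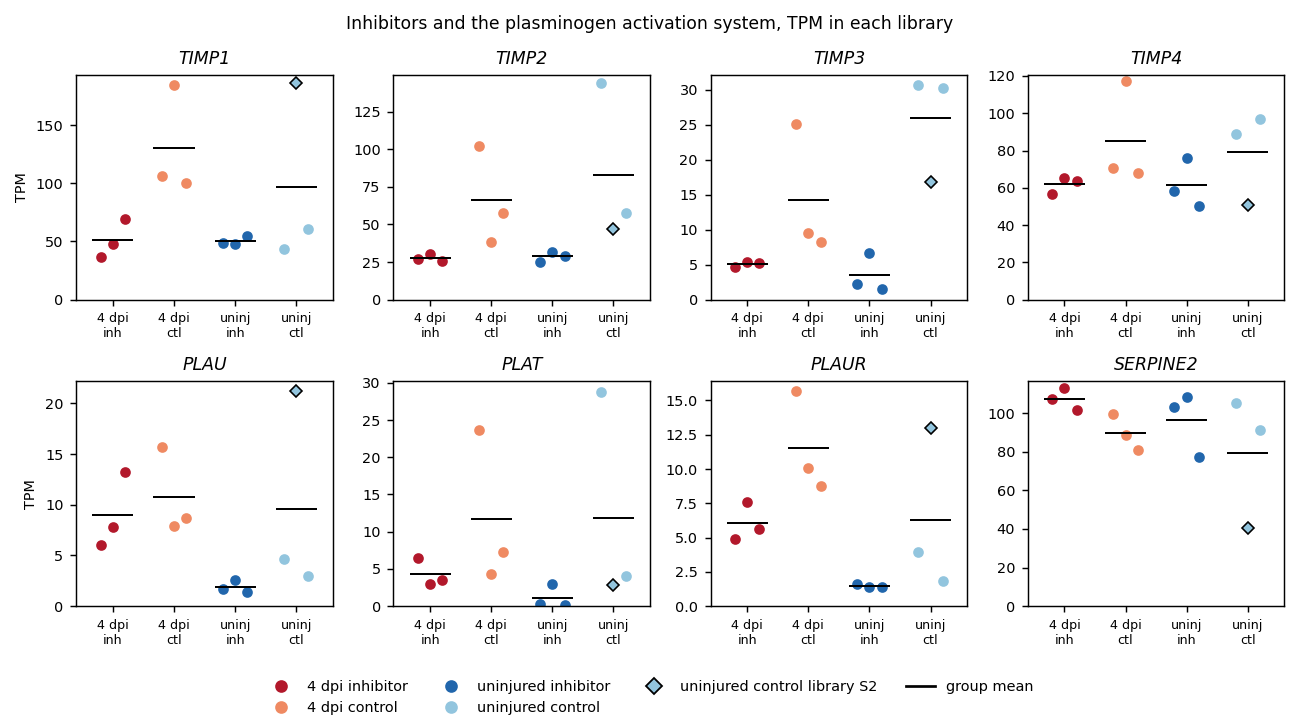
TPM in each of the 12 libraries of the 4 TIMPs, the plasminogen activators PLAU and PLAT, the urokinase receptor PLAUR, and the serpin SERPINE2, with libraries as points, uninjured control library S2 as a diamond and group means as bars. TIMP3 is lower in all 6 inhibitor libraries than in any control library.

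The inhibitor in injured cords was the third comparison. MMP2 fell in 4 dpi inhibitor cords relative to 4 dpi control cords, none rose and 59 genes did not pass, where 1.67% of all genes were called lower and 0.21% higher, against 1.67% and 0% of the 60. At an unadjusted p under 0.05 there were 16 of the 60, a smaller share than the 32.4% of all genes. The median log2 fold change was −0.73 over the 60 and −0.62 over all genes, and by family −0.84 for the MMPs, −0.78 for the ADAMs, −0.60 for the ADAMTSs and −1.17 for the TIMPs. MMP2 averaged 87.6 ± 3.86 TPM in 4 dpi inhibitor and 249.5 ± 78.6 TPM in 4 dpi control (SD, n = 3 libraries each), and the ranges did not overlap. Its log2 fold change was −1.45 (SE 0.26, adjusted p = 0.0436, limma). After median-of-ratios scaling it was −0.81 (adjusted p = 0.182), and no gene of the 60 was called. The MMP2 call was also lost without 4 dpi control library 1 (−1.31, 0.18) or 6 (−1.75, 0.087), without 4 dpi inhibitor library 5 (−1.42, 0.215) or 7 (−1.45, 0.221), and without uninjured inhibitor library 5, 6 or 7 (0.0749, 0.0544 and 0.0565), which share the estimate of spread. Without S2 there were 3 genes lower, MMP2, MMP9 and TIMP1, where 7.97% of all genes were lower. MMP9 and TIMP1 had been named for high values in S2, so their spread falls without it. Without uninjured control library 1 the count was 5, and without 4 dpi control library 5 or 4 dpi inhibitor library 6 it was 2. Shares over all genes are not given for these fits, so the counts do not describe the set. In 22 of the 60 genes (36.7%) all inhibitor libraries lay below all control libraries, against 46.8% of all genes.

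TIMP1, MMP9 and MMP10 were among the genes whose 4 dpi inhibitor libraries all lay below the 4 dpi control libraries on TPM without passing the test. On this scale 46.8% of all genes were separated in that way, against 36.7% of the 60. TIMP1 averaged 51.2 ± 16.5 TPM in 4 dpi inhibitor and 130.3 ± 46.8 TPM in 4 dpi control, at a log2 fold change of −1.33 (SE 0.45, adjusted p = 0.0807, limma). MMP9 stood at −1.52 (SE 0.70, 0.153) and MMP10 at −1.63 (SE 0.87, 0.205), with means of 24.5 ± 13.6 TPM in 4 dpi inhibitor and 68.6 ± 10.7 TPM in 4 dpi control for MMP10. The sum of the leukocyte markers ran the other way, with 1 of the 19 called higher. It was 0.246% to 0.285% in 4 dpi inhibitor and 0.161% to 0.195% in 4 dpi control. Its largest part was LYZ, at 1610, 1744 and 1906 TPM in 4 dpi inhibitor and 807.3, 954.2 and 816.9 TPM in 4 dpi control. Single markers went both ways, since TYROBP was higher and LAPTM5 lower in every 4 dpi inhibitor library than in any 4 dpi control library. The summed TPM of the markers of 5 other cell types was lower in all 4 dpi inhibitor libraries than in any 4 dpi control library. No gene of them was called, and the median log2 fold change of all genes on this scale was −0.62. Single genes differed, since the ependymoglial marker NES was higher in every 4 dpi inhibitor library than in any 4 dpi control library. Mesenchyme sums overlapped, at 0.391% to 0.395% in 4 dpi inhibitor and 0.26% to 0.456% in 4 dpi control. Neuron markers were at 0.139% to 0.166% in 4 dpi inhibitor and 0.283% to 0.605% in 4 dpi control, those of skeletal muscle at 0.59% to 0.642% and 0.974% to 1.66%, of ependymoglia at 0.09% to 0.103% and 0.119% to 0.243%, of epidermis at 0.0757% to 0.145% and 0.148% to 0.192%, and of endothelium at 0.00281% to 0.00363% and 0.0037% to 0.00937%. Their part in these values was not tested. SERPINE2 was higher in all 3 inhibitor libraries than in any 4 dpi control library, at 0.26 (SE 0.30, adjusted p = 0.529). ADAMTS5, an aggrecanase named after its values were seen, was the only other gene of that kind, at 0.22 (SE 0.31, 0.607), and these 2 were 3.33% of the 60, against 6.62% of all genes.

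**Figure D4:**
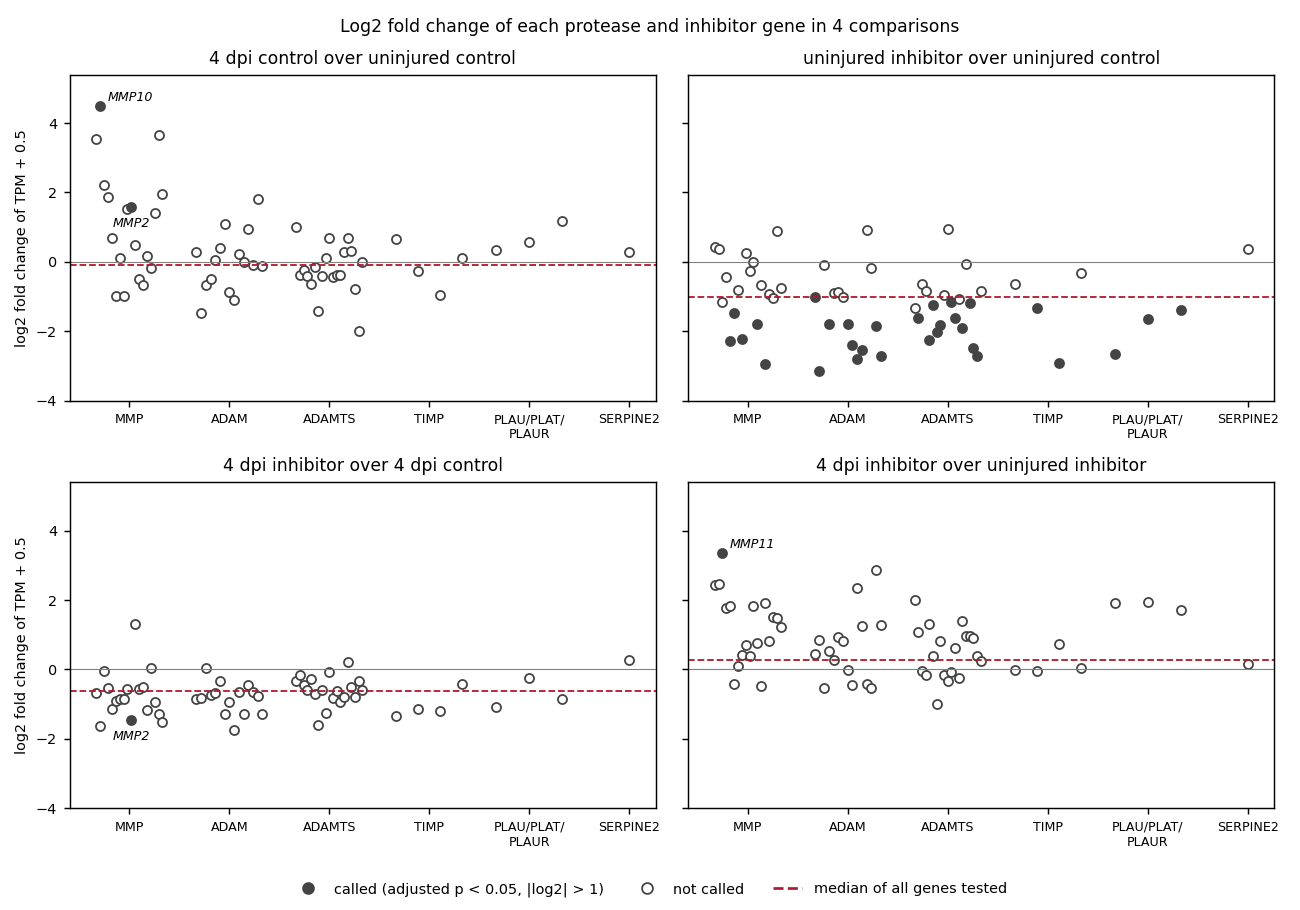
Log2 fold change of TPM + 0.5 of each of the 60 genes tested, by family and in alphabetical order within a family, in the 4 comparisons, with called genes filled and the median of all genes as a dashed line. MMP10 and MMP2 are the called genes of the injured against uninjured control panel, and all 30 called genes of the uninjured inhibitor panel lie below 0.

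Injury under the inhibitor was the fourth comparison. MMP11 rose in 4 dpi inhibitor cords relative to uninjured inhibitor cords, none fell and 59 genes did not pass, where 0.406% of all genes were called higher and 0.0271% lower, against 1.67% and 0% of the 60. At an unadjusted p under 0.05 there were 20 of the 60, where 17.6% of all genes were. The median log2 fold change was 0.74 over the 60 and 0.26 over all genes, and in 24 of the 60 (40%) all injured libraries lay above all uninjured ones, against 28.7% of all genes. By family the median was 1.35 for the MMPs, 0.53 for the ADAMs, 0.39 for the ADAMTSs, 1.92 for PLAU, PLAT and PLAUR, and 0.00 for the TIMPs. MMP11, stromelysin 3, which is activated inside the cell by furin-like proteases and marks stroma and tissue under remodeling, had 8.61, 5.37 and 4.67 TPM in 4 dpi inhibitor, 17.5, 3.34 and 3.94 TPM in 4 dpi control, 0.089, 0.38 and 0 TPM in uninjured inhibitor, and 2.36, 0.274 and 0.844 TPM in uninjured control libraries. The uninjured inhibitor libraries were at or under 0.38 TPM, and the log2 fold change was 3.35 (SE 0.62, adjusted p = 0.037, limma) and 3.49 after median-of-ratios scaling (0.0166). The call was lost with a pseudocount of 1 (2.62, 0.0557), without 4 dpi inhibitor library 5 (3.11, 0.162), 6 (3.43, 0.175) or 7 (3.52, 0.156), without uninjured inhibitor library 5 (3.30, 0.166) or 7 (3.18, 0.201), and without 4 dpi control library 6 (0.0628) or uninjured control library 5 (0.0532). In controls the log2 fold change of MMP11 was 2.23 (SE 0.62, adjusted p = 0.148).

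The same comparison without S2, which enters it through the shared spread alone, called 7 genes higher, where 2.21% of all genes were. They were ADAM28, MMP1, MMP11, MMP13, MMP14, PLAU and PLAUR. Of these, MMP1, MMP13, PLAU and PLAUR had been named for high values in S2, so their spread falls without it. Without uninjured control library 1 the count was 3, without uninjured inhibitor library 6 it was 7, without 4 dpi control library 1 it was 2, and it was 0 without 4 dpi control library 6, uninjured control library 5, uninjured inhibitor library 5 or 7, or any 1 of the 4 dpi inhibitor libraries. These counts too stand without a share over all genes. With all libraries ADAM28 stood at 2.35 (SE 0.48, adjusted p = 0.0521, limma) and at 2.28 after rescaling (0.0332), where it was called. ADAM8, a leukocyte sheddase named after its values were seen, had 12.9, 12.2 and 9.39 TPM in 4 dpi inhibitor, 44.5, 10.8 and 16.1 TPM in 4 dpi control, 0.644, 4.78 and 0.201 TPM in uninjured inhibitor, and 10.2, 6.71 and 2.09 TPM in uninjured control libraries, and it stood at 2.88 (SE 0.73, 0.0988). MMP14 stood at 1.83 (SE 0.47, 0.0998), PLAU at 1.95 (SE 0.58, 0.13), and PLAUR at 1.71 (SE 0.51, 0.137). For these 5 genes no injured library overlapped an uninjured one under the inhibitor. The TIMPs showed no such separation, with log2 fold changes between −0.05 and 0.74. The leukocyte markers summed to 0.246% to 0.285% in 4 dpi inhibitor and to 0.101% to 0.12% in uninjured inhibitor libraries, with 5 of the 19 called higher. LYZ was again their largest part, at 1610, 1744 and 1906 TPM in 4 dpi inhibitor and 714.6, 613.6 and 718.4 TPM in uninjured inhibitor. Epidermis markers were at 0.0757% to 0.145% in 4 dpi inhibitor and 0.0322% to 0.0609% in uninjured inhibitor, those of mesenchyme at 0.391% to 0.395% and 0.169% to 0.324%, of endothelium at 0.00281% to 0.00363% and 0.00186% to 0.00247%, of neurons at 0.139% to 0.166% and 0.25% to 0.356%, and of ependymoglia at 0.09% to 0.103% and 0.117% to 0.168%, with none of their genes called. The part of these cell types was not tested.

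The difference between the inhibitor's effects in injured and uninjured cords was tested as an interaction, and no gene of the 60 passed at an adjusted p under 0.05, where 0.0271% of all genes did. At an unadjusted p under 0.05, which 6.7% of all genes reached, there were 8 of the 60, namely ADAM9, ADAM11, ADAM28, ADAMTS8, ADAMTS10, MMP2, MMP25 and TIMP3. For MMP2 the difference was −1.18 (SE 0.37, adjusted p = 0.658, limma), which joins a log2 fold change of −1.45 in injured and −0.27 in uninjured cords. For the other 7 it was positive, between 1.42 and 2.37, with the same adjusted p of 0.658. Neither the fall of MMP2 at 4 dpi nor the falls in uninjured cords were thus shown to differ with injury. The comparisons with each control group share those libraries, so their fold changes are not independent.

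Summed over each family, the 19 MMPs reached 416.5 ± 36 TPM in 4 dpi inhibitor, 939.0 ± 258.9 TPM in 4 dpi control, 199.1 ± 29.4 TPM in uninjured inhibitor and 536.6 ± 224.7 TPM in uninjured control (SD, n = 3 libraries each). The 4 TIMPs reached 145.9 ± 19.5, 296.0 ± 58, 143.9 ± 15.7 and 284.4 ± 33.9 TPM in these groups. A ratio of the sums within a library does not depend on how the library was scaled. The TIMP sum over the MMP sum was 0.331, 0.331 and 0.388 in 4 dpi inhibitor, 0.276, 0.325 and 0.366 in 4 dpi control, 0.646, 0.727 and 0.814 in uninjured inhibitor, and 0.521, 0.412 and 0.845 in uninjured control libraries. All 6 injured libraries lay below all 6 uninjured ones, and the lowest uninjured value was that of S2. This is given as a description, since the sums are carried by the few abundant members.

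**Figure D5:**
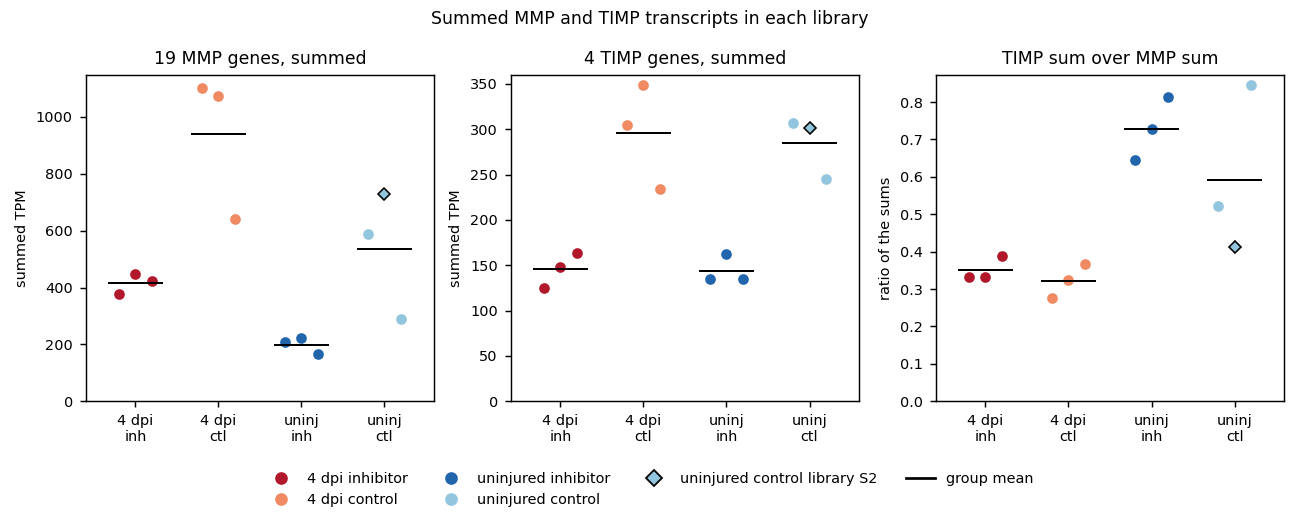
Summed TPM of the 19 MMPs, summed TPM of the 4 TIMPs, and the ratio of the TIMP sum to the MMP sum in each of the 12 libraries, with libraries as points, uninjured control library S2 as a diamond and group means as bars. The ratio is at most 0.388 in injured libraries and at least 0.412 in uninjured ones.

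A list of 46 further genes of the same system was followed too. It included activating proprotein convertases, tolloid proteases, plasmin inhibitors, ADAMTS-like proteins, heparanase and hyaluronidases. The tetraspanins and rhomboid-like proteins that escort ADAM10 and ADAM17 were on it. So were other protease inhibitors, CST3 and SERPING1 among them, and genes outside these classes. Of the 46 genes 45 were in the table and were tested. In 4 dpi control over uninjured control 1 was higher and none lower, where 0.874% of all genes were higher. This was SERPING1, the C1 inhibitor of complement, which had 17.8, 16.3 and 17.1 TPM in 4 dpi inhibitor, 45.2, 33.5 and 30.8 TPM in 4 dpi control, 21, 21.4 and 10.3 TPM in uninjured inhibitor, and 5.07, 1.41 and 13.6 TPM in uninjured control libraries (log2 fold change 2.78, adjusted p = 0.0291, limma). In uninjured inhibitor over uninjured control 2 were higher, CST3 (cystatin C, 1.22, adjusted p = 0.0019) and SERPING1 (1.70, 0.0218), 23 were lower and 20 did not pass, with a median of −1.12. Of all genes 3.32% were higher and 42% lower, at a median of −1.0. FURIN, the convertase that activates membrane-type MMPs, ADAMs and MMP11, had 4.5, 3.85 and 3.74 TPM in 4 dpi inhibitor, 21.1, 4.68 and 6.36 TPM in 4 dpi control, 0.464, 1.98 and 0.141 TPM in uninjured inhibitor, and 16.5, 7.37 and 5.74 TPM in uninjured control libraries. It was lower by −3.03 (adjusted p = 0.0029), with every uninjured inhibitor library under every other library. RHBDF2, which carries ADAM17 to the cell surface, was lower by −1.86 (0.00391), and the convertase PCSK5 by −1.93 (0.00373). RHBDF1, the other rhomboid-like protein of the list, stood at −0.96 (0.047) and was not called. FURIN, RHBDF2 and PCSK5 were picked from the 23 lower genes after their values were seen. On the rescaled values there were 7 higher and 14 lower of the 45, against 15.1% and 13.2% of all genes, and FURIN, RHBDF2 and PCSK5 stayed among the lower ones. None was called in 4 dpi inhibitor over 4 dpi control (12 of 45 at an unadjusted p under 0.05, against 32.4% of all genes) or in 4 dpi inhibitor over uninjured inhibitor (14 of 45, against 17.6%).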

How the data were processed

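Spinal cord RNA of 12 axolotl libraries was analysed as TPM per gene, which the authors deposited in 1 table. The submitters' processing notes list the tools RSEM (1.1.6), Bowtie (0.12.1) and DESeq2 (1.16.1) with no step beside them. Which transcriptome or build was used, and how human genes were assigned, is not given in the sources used here. Listed were 15091 genes with human identifiers, and 25 symbols that had turned into dates were read from the identifier. Since TPM sum to a fixed total, depth is unknown, no count model was fitted, and a rise of some genes lowers all others. The labels put 3 libraries in each of 4 groups. Whether libraries of a group came from separate clutches is not stated, so p-values measure the spread between pools of animals.

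Genes reaching 0.5 TPM in 3 or more libraries were fitted in limma 3.58.1 (R 4.3.3) on log2(TPM + 0.5) with all 12 libraries, group means, a variance trend and Benjamini-Hochberg adjustment over all genes tested. For a call, the adjusted p had to be under 0.05 and the log2 fold change beyond 1 in size, and for the interaction the adjusted p sufficed. Code was tested on simulated data. Genes given with a value in every library were those called in a comparison (for the uninjured inhibitor, on TPM and on median-of-ratios values), the 10 highest by mean TPM, and all TIMPs, plasminogen activators, PLAUR and SERPINE2, 27 in all. A further gene of the set is not reported here and is in no count of its members. The members and lists were chosen with earlier results of these data known. The fits were repeated with pseudocounts of 0.1 and 1, without the filter and with a filter of 2 TPM, on quantile-normalized and on median-of-ratios values, on the compared libraries alone, with a replicate block, without the trend, without the fold threshold, and leaving out each library. Leaving out both control libraries numbered 1 was added after seeing the data. Figures were drawn in matplotlib 3.10.9 under Python 3.11.15. No sequence or coordinate is shown, since none was used here.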

Additional observations from a re-analysis of the deposited data

How the results depend on the processing

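With each library left out in turn, the number of genes called was 0 to 8 (2 with all libraries) in 4 dpi control over uninjured control, 15 to 34 (30) in uninjured inhibitor over uninjured control, 0 to 5 (1) in 4 dpi inhibitor over 4 dpi control, 0 to 7 (1) in 4 dpi inhibitor over uninjured inhibitor, and 0 in the interaction. In the same order of comparisons it was 0 to 2 (1), 18 to 26 (25), 0 to 3 (0) and 0 to 2 (0) for the 45 further genes of the system. In 4 dpi control over uninjured control 1 member was called after median-of-ratios scaling or without a trend, 4 after quantile normalization (3 higher, 1 lower) and 0 in a fit of the compared libraries alone. In uninjured inhibitor over uninjured control 16 were called after median-of-ratios scaling, 10 after quantile normalization (3 higher, 7 lower) and 16 in the fit of the compared libraries. In 4 dpi inhibitor over 4 dpi control 0 were called after either rescaling, without a trend or without both control libraries numbered 1, and 3 in the fit of the compared libraries. In 4 dpi inhibitor over uninjured inhibitor 0 were called with a pseudocount of 1, 2 with a pseudocount of 0.1, a filter of 2 TPM or median-of-ratios scaling, 7 in the fit of the compared libraries and 7 without both control libraries numbered 1. For the further genes the injury count in controls was 2 after quantile normalization and 0 in the fit of the compared libraries, without a trend or without both control libraries numbered 1, and the count in uninjured inhibitor cords was 10 after quantile normalization. Their count in 4 dpi inhibitor over 4 dpi control was 3 in the fit of the compared libraries, and over uninjured inhibitor it was 1 with a filter of 2 TPM or without a trend, 5 in that fit and 4 without both control libraries numbered 1. What the replicate numbers mark is not stated. Same-numbered libraries of different groups deviated together at r = −0.285 to 0.506, highest for the control libraries numbered 1, and they were not taken as pairs. Whether they share a clutch or batch was not tested. With a replicate block the members called were 15, 20, 2, 14 and 0 over the 4 comparisons and the interaction. In 4 dpi control over uninjured control these were 11 higher, TIMP1 and PLAUR included, and 4 lower, namely ADAM22, ADAM23, ADAMTS8 and MMP17. No other library carries the label S2, so the block in effect leaves that library out. MMP1, MMP3, MMP9, MMP10, MMP13, PLAUR and TIMP1, all among the 11, had been named for high values in S2. Their calls with the block are thus no separate support for a rise. Of all 14764 genes tested the block called 407 higher and 521 lower in 4 dpi control over uninjured control. It called 345 higher and 4922 lower in uninjured inhibitor over uninjured control. In 4 dpi inhibitor it called 33 higher and 412 lower over 4 dpi control, and 1255 higher and 259 lower over uninjured inhibitor. The other counts of this section stand without a share over all genes, and they describe the settings and not the set. The further genes called with the block were 3, 14, 0 and 9 over the 4 comparisons. ADAMTS2 and ADAMTS6, lower on TPM in uninjured inhibitor cords, stood at 0.13 and 0.10 after quantile normalization, with the sign reversed and no call, and the cause was not tested. After median-of-ratios scaling the MMP sum was 491.8 in 4 dpi inhibitor, 716.5 in 4 dpi control, 282.2 in uninjured inhibitor and 404.3 in uninjured control, and the TIMP sum 173.0 in 4 dpi inhibitor, 229.4 in 4 dpi control, 204.1 in uninjured inhibitor and 212.5 in uninjured control libraries. Of the 30 calls in uninjured inhibitor cords 7 were kept under every alternative, and of the 4 calls in the other comparisons none was.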
